A study of Mus musculus with 13 samples.

Results

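The ETn and MusD early transposons are mouse retrotransposons with long terminal repeats (LTRs), and 5 of the 889 elements with signal in the deposited tables belong to them. They were taken by name: every row that starts with MMETN, RLTRETN or ETNERV, in any case, and has a value above 0. Apart from that the rule used no measured value. It gave MMETN, the ETn consensus, ETNERV, ETnERV2 and ETnERV3, consensus sequences of related endogenous retroviruses, and RLTRETN_MM, the consensus of the ETn LTR. With 2 strands each they make 10 features, all of which passed the filter on low coverage in both tables.

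The 13 libraries were strand-specific and came from RNA of 2 mouse tumor lines. In B16 melanoma cells there were Tdg Trp53 double knockout (DKO), Tdg knockout (KO), Trp53 KO and wild-type (WT) cells, with 2 libraries of each. In KP lung adenocarcinoma cells there were Tdg KO cells, with 3 libraries, and WT cells, with 2. The series asks whether cells without Trp53, the gene of the tumor suppressor p53, depend on Tdg, a DNA glycosylase that removes thymine from mismatches and oxidized forms of methylcytosine. Both lines were grown in the same medium and no treatment is given. "WT" is the label of the unedited cells, and the labels give no Trp53 genotype for KP beyond it. How the knockouts were made, and whether the libraries of a group came from 1 clone or from separate cultures, is not given in the sources used here, so p-values measure only the spread between these libraries. The tables hold repeats and piRNA loci but no genes, so neither the knocked-out genes nor the identity of the lines could be checked in them.

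ETn elements lack the genes of a retrovirus and rely for their copying on proteins made by MusD elements, their coding relatives, whose LTRs are closely related. The LTR holds the promoter and the signal that ends the transcript, so sense RNA of the internal sequence is the form expected of a transcribed element. ETn RNA is known from early mouse embryos, and new ETn insertions have caused many mutations in laboratory mice. DNA methylation and histone methylation are the known restraints on the family.

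The values are coverage per base of each consensus as deposited, not scaled to library depth. Sense coverage over the repeats other than 7SL, an abundant RNA, summed to between 12340 and 28060 in B16 and between 4129 and 12970 in KP. Of the coverage summed over all elements and both strands, 7SL itself made up between 85.3% and 95.4% in a B16 library. In a KP library it made up between 93.3% and 99.1%. Sums of coverage, here and below, add values per base without weighting by length, so shares of them are not shares of reads. The median ratio of a library to the mean library of its table, over features that averaged a coverage of 1 or more, was 1.76 and 1.37 for DKO, 0.863 and 0.646 for Tdg KO, 0.614 and 0.522 for Trp53 KO, and 0.688 and 0.935 for WT. In KP it was 0.894, 1.06 and 1.34 for Tdg KO and 0.597 and 0.746 for WT. The ratio was thus highest in the DKO libraries of B16, and in KP every Tdg KO library was above both WT libraries. Changes are given as deposited and, for the results that are described in detail, again with each library divided by its ratio, called median-ratio scaling. One library stood apart for the transposons described here. KP Tdg KO library 1 had a summed sense coverage of them equal to 0.546% of that of all repeats, against 3.30% and 9.03% in the other Tdg KO libraries and 5.83% and 9.51% in KP WT.

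MMETN was the best covered of the 5. In KP cells its sense coverage was 37.5, 178 and 595 in Tdg KO and 154 and 269 in WT. In B16 cells it was 4.84 and 7.99 in DKO, 11.3 and 5.74 in Tdg KO, 18.5 and 10.1 in Trp53 KO, and 14.2 and 10.4 in WT. Every KP library lay above every B16 library. Among the 535 ranked repeats MMETN was number 5 by mean sense coverage in KP and number 122 in B16. It took 0.289%, 2.19% and 6.01% of repeat sense coverage in KP Tdg KO and 3.74% and 6.48% in KP WT, and no more than 0.0844% in any B16 library. Line and table differ together, so no test was made between them, and in RNA from whole cultures fewer expressing cells and less RNA per cell cannot be told apart.

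ETNERV, an internal consensus, was the next best covered in KP and followed the same order of lines. Its sense coverage was 23.0, 82.6 and 291.0 in KP Tdg KO and 82.6 and 123 in KP WT. In B16 it was 4.39 and 7.13 in DKO, 6.31 and 2.33 in Tdg KO, 6.79 and 4.66 in Trp53 KO, and 4.94 and 4.68 in WT. It ranked 11 in KP and 151 in B16. Over the KP libraries ETNERV and MMETN moved together, with a Pearson r of 0.996 in log2 sense coverage after scaling (5 libraries), and r was 0.917 over the 8 B16 libraries. Related consensus sequences can hold the same reads, so such a likeness is a description of both rows and carries no test.

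**Figure D1:**
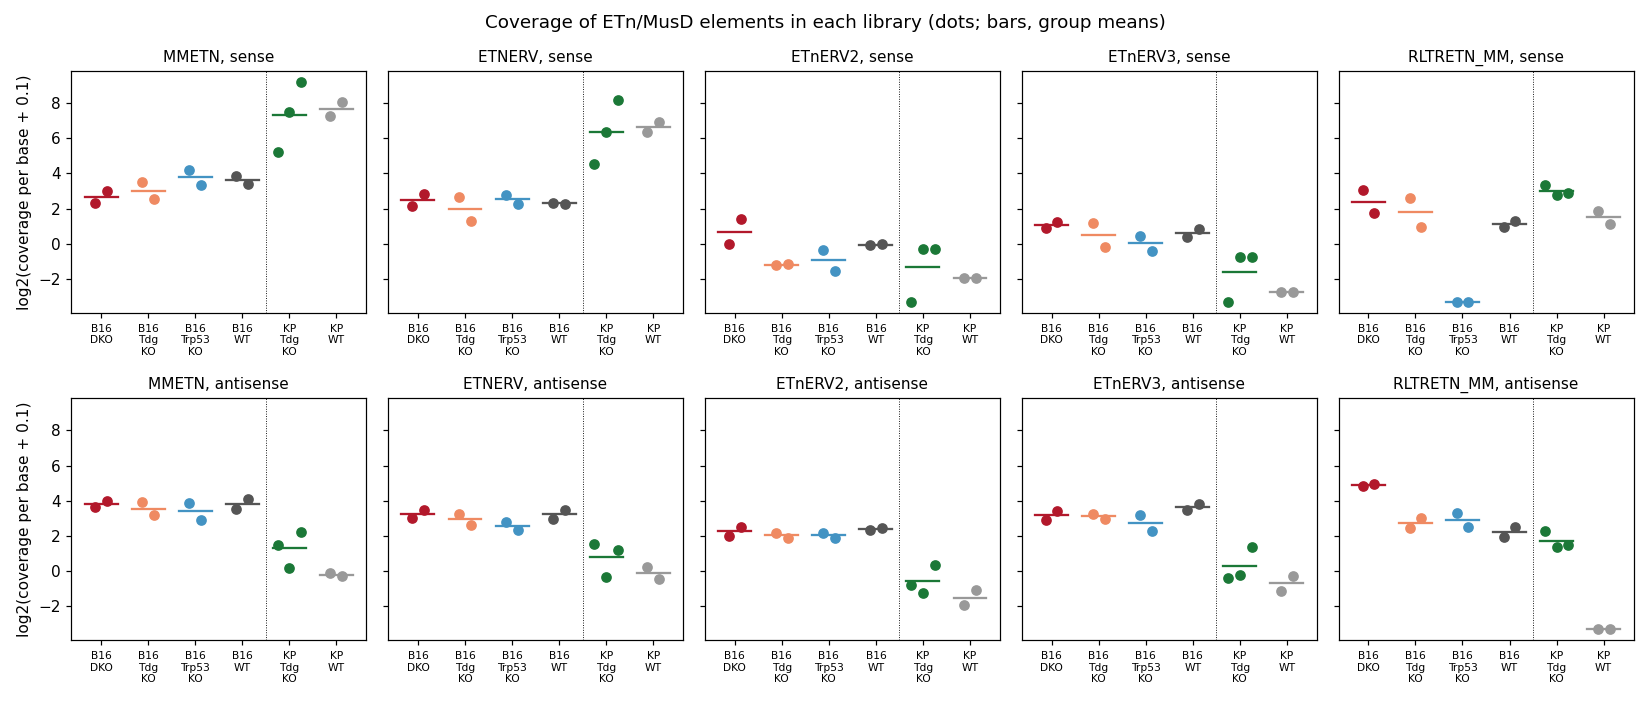
Log2 of coverage per base plus 0.1 for the 5 ETn and MusD elements, with a panel for each strand of each element, each dot a library and each bar the group mean of the log2 values. On the unlogged scale, sense coverage of MMETN runs from 37.5 to 595 in KP and from 4.84 to 18.5 in B16, and antisense coverage of RLTRETN_MM is at 28.2 and 30.7 in the DKO libraries.

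The other 2 internal consensus sequences had little sense coverage and were not higher in KP. ETnERV2 had sense coverage of 0, 0.699 and 0.727 in KP Tdg KO and 0.156 in both KP WT libraries. In B16 it was 0.875 and 2.54 in DKO, 0.326 and 0.353 in Tdg KO, 0.688 and 0.241 in Trp53 KO, and 0.845 and 0.889 in WT. ETnERV2 in sense therefore overlapped between the lines. ETnERV3 had 0, 0.498 and 0.500 in KP Tdg KO and 0.0515 and 0.0504 in KP WT. In B16 it had 1.77 and 2.29 in DKO, 2.20 and 0.773 in Tdg KO, 1.25 and 0.655 in Trp53 KO, and 1.22 and 1.69 in WT. Every B16 library lay above every KP library for ETnERV3, the opposite of MMETN. The KP WT values of both rested on few fragments, 3.88 and 3.87 for ETnERV2 and 1.0 and 0.983 for ETnERV3.

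The LTR consensus RLTRETN_MM is short, with a length of 322 bases found from the steps of its values, against 4904 for MMETN. A coverage of 1 on it is therefore little more than 1 fragment. In sense it had 8.98 and 3.46 fragments in DKO, 6.54 and 2.01 in Tdg KO, none in either Trp53 KO library, and 2.01 and 2.51 in WT. In KP it had 11, 7.27 and 7.82 sense fragments in Tdg KO and 3.87 and 2.25 in WT. MMETN rested on 79.6 to 305 sense fragments in B16 and 618 to 9800 in KP, so its values carry far less counting error than those of the LTR.

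For MMETN and ETNERV the strand of the RNA separated the lines as clearly as its amount. In KP, 93.2% to 99.7% of MMETN coverage was sense (median 99.4%, 5 libraries), and in B16 28.5% to 57.8% (median 41.2%, 8 libraries). ETNERV ran from 89.3% to 99.5% in KP and from 28.0% to 49.9% in B16. The ranges of the lines did not meet for either element. Antisense coverage of ETNERV ran from 0.620 to 2.76 in KP and from 4.96 to 11.2 in B16. Antisense coverage of MMETN was also lower in KP: 2.72, 1.04 and 4.63 in Tdg KO and 0.811 and 0.722 in WT. In B16 it was 12.2 and 15.4 in DKO, 14.9 and 8.82 in Tdg KO, 14.7 and 7.38 in Trp53 KO, and 11.6 and 16.8 in WT.

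ETnERV2 and ETnERV3 were mostly antisense in B16. The sense share of ETnERV2 there ran from 6.41% to 31.1% (median 13.9%), and that of ETnERV3 from 9.25% to 19.2% (median 12.2%). In KP these shares ran from 0% to 68.4% (median 38.5%) and from 0% to 39.5% (median 12.5%). The sense shares of both elements thus overlapped between the lines. Antisense coverage of ETnERV3 in B16 was 7.48 and 10.5 in DKO, 9.53 and 7.58 in Tdg KO, 9.11 and 4.66 in Trp53 KO, and 10.9 and 13.8 in WT, well above its sense coverage in each of the 8 libraries. In KP it was 0.671, 0.762 and 2.45 in Tdg KO and 0.361 and 0.716 in WT. Antisense coverage of ETnERV2 ran from 3.52 to 5.62 in B16 and from 0.164 to 1.16 in KP, again without overlap. Over the fragments of all 5 elements, 89.3% to 99.3% were sense in KP and 24.2% to 40.7% in B16. Most of the KP fragments belonged to MMETN and ETNERV. The source of antisense reads, such as transcription from neighbouring promoters, was not tested.

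**Figure D2:**
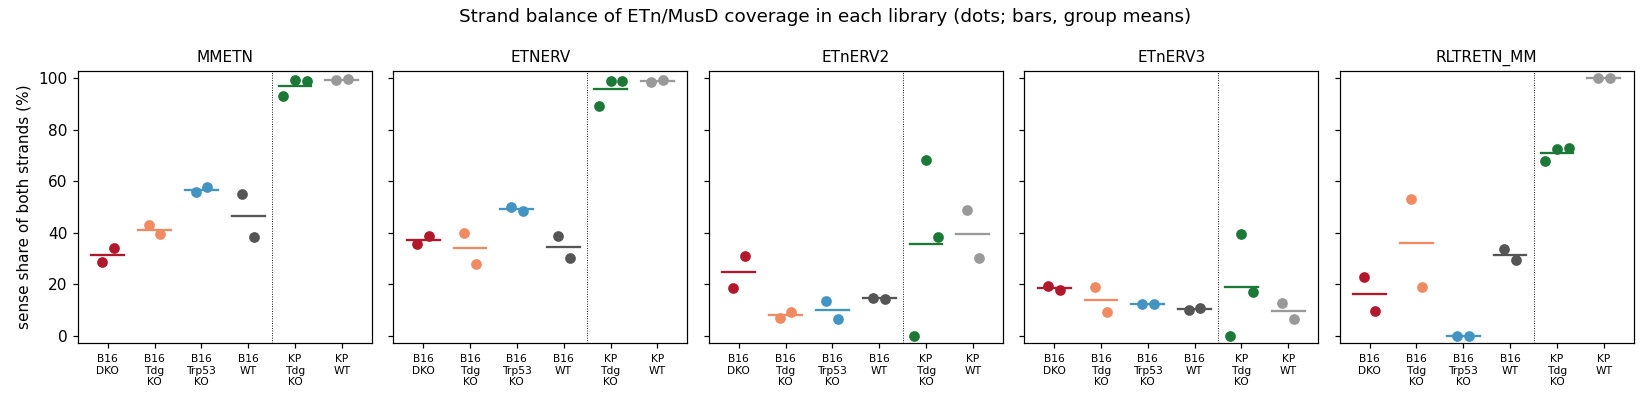
Sense share of the coverage of both strands (%) for each element, with a dot for each library and a bar for each group mean. MMETN and ETNERV are near 100% in KP and below 60% in B16. ETnERV3 stays under 20% in B16 and runs from 0% to 39.5% in KP. RLTRETN_MM is at 0% in both Trp53 KO libraries and at 100% in both KP WT libraries.

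The IAP elements are a related and very active family of mouse endogenous retroviruses of the same ERV2 class. Set against IAPEZI among them, MMETN had the opposite line preference. IAPEZI, the best covered ERV2 element in B16 in sense, had a coverage of 9.80, 51.1 and 58.3 in KP Tdg KO and 28.7 and 51.3 in KP WT. In B16 it ran from 1805 to 6322. Not every IAP element differed so, since IAPEY4_I in sense overlapped between the lines, from 7.68 to 74.4 in KP and from 20.0 to 50.1 in B16. Within a library the MMETN to IAPEZI ratio was 3.80, 3.47 and 10.2 in KP Tdg KO and 5.36 and 5.23 in KP WT, and between 0.00202 and 0.00448 in B16. Library depth cancels in these ratios. Of the sense coverage of ERV2 elements, MMETN took 16.5%, 24.8% and 40.6% in KP Tdg KO and 27.5% and 32.9% in KP WT, and at most 0.168% in B16. The other best covered ERV2 elements in KP were far lower, with means over the 5 libraries of 56.6 for MMERVK10C, 43.3 for IAPEY4_I and 43.2 for IAPA_MM. In B16 IAPLTR1a_I_MM (mean 2676) and IAPA_MM (781.3) followed IAPEZI (3544).

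**Figure D3:**
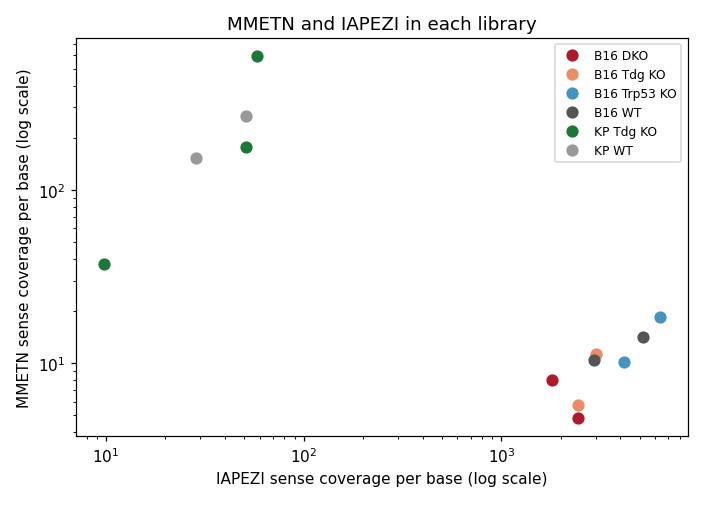
Sense coverage per base of MMETN against IAPEZI in each library (both axes log), each point a library coloured by group. The 5 KP points lie at high MMETN and low IAPEZI, and the 8 B16 points at IAPEZI of 1805 or more and MMETN of 18.5 or less.

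Within B16, however, IAP elements were 4 of the 5 repeats with the sense pattern most like that of MMETN. These 4 are related consensus sequences that can hold the same reads, so they need not be separate likenesses. Among 272 repeats outside the family with a mean sense coverage of at least 1, the highest Pearson r with MMETN over the 8 libraries, after scaling, belonged to RLTR17_MM (0.977), IAPEZI (0.940), IAPLTR1a_I_MM (0.929), IAP-d (0.929) and IAPA_MM (0.926). Over the 5 KP libraries the same 5 had r values of 0.869, 0.905, 0.905, 0.0146 and 0.895 in that order. RLTRETN_MM, the LTR of the family itself, had a negative r with MMETN in both lines (-0.63 in B16 and -0.83 in KP). In B16 its coverage was 0 in both Trp53 KO libraries, where the 0.1 added before taking logs sets the value. Its sense coverage rested on at most 8.98 fragments in a B16 library and on 2.25 to 11 in a KP library. The libraries share their scaling factors, which enter every one of these values.

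Loss of Tdg in cells without Trp53, DKO against Trp53 KO, came with higher coverage of the LTR as deposited. No rise of an internal sequence of the family passed after adjustment. Even so, ETnERV2 and ETnERV3 in sense were higher in both DKO libraries than in both Trp53 KO libraries as deposited. In sense RLTRETN_MM was at 8.31 and 3.20 in DKO and at 0 in both Trp53 KO libraries. The DKO mean of 5.75 was 2.07 times a floor of 3 fragments per library, a coverage of 2.78. DKO library 2 alone, at 3.46 fragments, lay only just above that floor. The adjusted p was 0.0154 by limma, and the fitted log2 change of 5.72 depends on the pseudocount because one side is 0. In antisense it was at 28.2 and 30.7 in DKO and at 9.56 and 5.56 in Trp53 KO. The groups did not overlap, and the log2 change was 2.0 ± 0.42 (SE, adjusted p = 0.0209, limma, n = 2 each). These were 2 of the 10 features, while 29.5% of all 1246 features rose and 1.52% fell, so the share of the family called is no larger than that of the table. After median-ratio scaling the antisense rise did not pass (0.55, adjusted p = 0.395, limma). The fit still called the sense one (adjusted p = 0.0235), but against zeros that call depends on the pseudocount. The scaled DKO mean of 3.52 lay under the scaled floor of both Trp53 KO libraries (4.52 and 5.32), so no fold can be given on that scale.

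Without either Trp53 KO library the sense call was lost, with an adjusted p of 0.0627 without library 1 and 0.0660 without library 2 (limma). The antisense call was lost without any one library of either group, with an adjusted p of 0.0692 and 0.0800 without Trp53 KO libraries 1 and 2, and of 0.0720 and 0.0665 without DKO libraries 1 and 2.

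MMETN went the other way in sense, with 4.84 and 7.99 in DKO and 18.5 and 10.1 in Trp53 KO. The groups did not overlap. The log2 change was -1.13 ± 0.51 as deposited and did not pass (SE, adjusted p = 0.118, limma, n = 2 each). After median-ratio scaling it was -2.57 ± 0.52 and passed (adjusted p = 0.0357, limma), in a fit where 6.18% of the features rose and 3.93% fell. With a library left out under that scaling the change ran from -3.04 to -1.88 and the adjusted p from 0.0346 to 0.166 (limma). The call held without either WT library or DKO library 2 and was lost without any of the other 5. As a share of repeat sense coverage, which needs no scaling, MMETN was at 0.0172% and 0.0454% in DKO and at 0.0844% and 0.0681% in Trp53 KO. The difference was -0.0449 percentage points, with an exact permutation p of 0.333, the smallest that 2 against 2 libraries can give. Against the ERV2 class no such separation was seen. The share of MMETN in ERV2 sense coverage was 0.0653% and 0.158% in DKO and 0.139% and 0.110% in Trp53 KO. Its ratio to IAPEZI was 0.00202 and 0.00448 in DKO and 0.00295 and 0.00245 in Trp53 KO, which overlap (log2 difference 0.16, exact permutation p = 1.0). IAPEZI in sense was itself at 2450 and 1805 in DKO and 6322 and 4180 in Trp53 KO, lower in both DKO libraries as MMETN was.

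The remaining features of the family passed in neither fit of this comparison. Antisense coverage of MMETN, ETNERV, ETnERV2 and ETnERV3 had log2 changes of 0.39, 0.69, 0.24 and 0.43 as deposited and of -1.05, -0.75, -1.19 and -1.0 after scaling. The direction of these 4 thus turned with the scaling. ETNERV in sense was level as deposited (-0.0075 ± 0.56, adjusted p = 0.997, limma) and lower after scaling (-1.44, adjusted p = 0.119). ETnERV2 in sense was at 0.875 and 2.54 in DKO and at 0.688 and 0.241 in Trp53 KO. It did not pass, with a log2 change of 1.63 ± 0.74 (SE, adjusted p = 0.121, limma, n = 2 each). ETnERV3 in sense had a log2 change of 1.06 (adjusted p = 0.22, limma), and after scaling the values were 0.38 for ETnERV2 and -0.29 for ETnERV3.

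**Figure D4:**
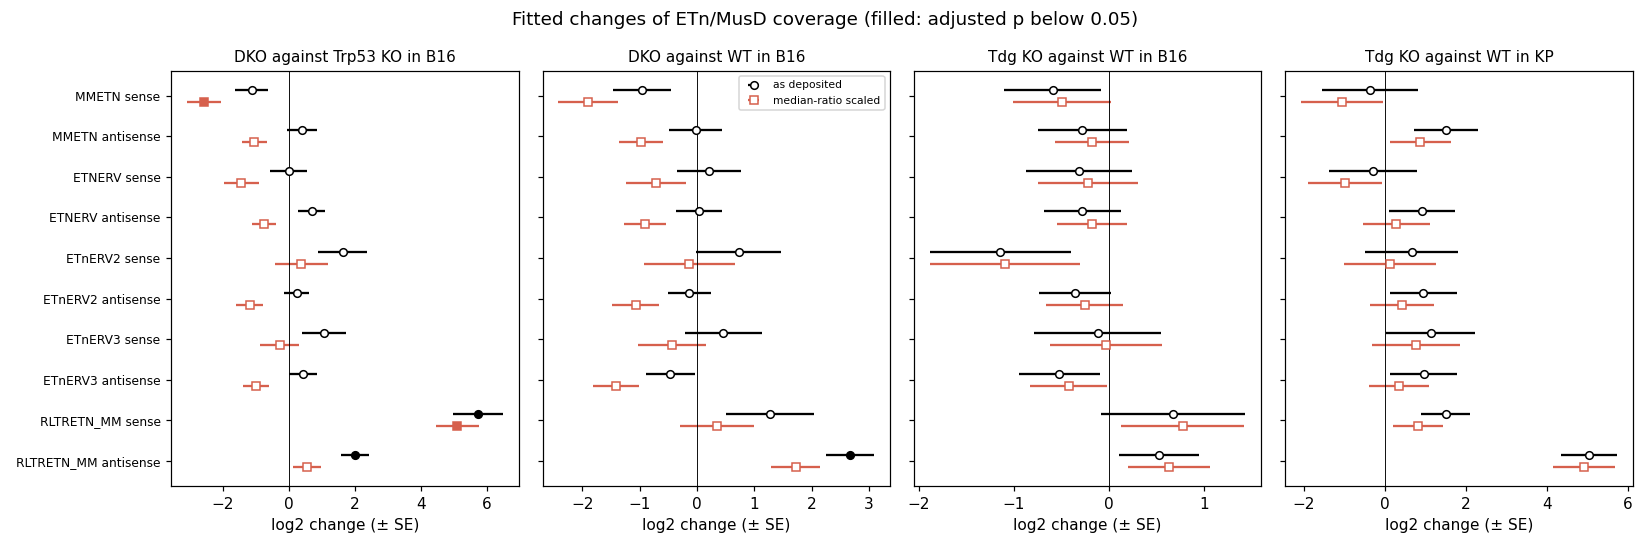
Fitted log2 change with its SE for each strand of the 5 elements in 4 comparisons, as deposited (circles) and after median-ratio scaling (squares), with filled symbols where the adjusted p is below 0.05. RLTRETN_MM lies right of 0 throughout. In DKO against Trp53 KO it is filled on both strands as deposited and in sense also after scaling, while MMETN in sense is filled only after scaling (-2.57). In DKO against WT RLTRETN_MM is filled in antisense as deposited (2.67).

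The shift of the whole table sets the scale for these values. The median log2 change of all 1246 features in DKO against Trp53 KO was 1.67 as deposited and 0.60 after scaling. The median of the 5 ETn and MusD elements was 1.06 in sense and 0.43 in antisense as deposited, and -0.29 and -1.0 after scaling. With features at 0 in 1 group set to their lower bounds, the median of all features was 1.40 and that of the 5 in sense 1.05, though 116 features at 0 had no length and stayed as fitted. Other ERV2 elements had a median of 1.60 in sense, with 30 of 181 up and 0 down, and of 1.88 in antisense, with 43 of 204 up and 0 down (limma). With bounds these medians were 1.10 and 1.43. Those with the smallest p were all at 0 in Trp53 KO: BGLII in sense was at 3.21 and 4.81 in DKO, RMER17B in sense at 3.24 and 1.48, ERVB4_2B-LTR_MM in sense at 3.26 and 2.39, IAP1-MM_LTR in antisense at 2.51 and 3.63, and IAPLTR4_LTR in antisense at 2.19 and 0.949.

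Strand balance in DKO against Trp53 KO moved most for MMETN among the 4 internal sequences without an adjusted call. Its sense share was 28.5% and 34.1% in DKO and 55.8% and 57.8% in Trp53 KO, without overlap. The log2 ratio of sense to antisense fell by 1.52 ± 0.49 (SE, limma), with a p of 0.0226 before and 0.199 after adjustment over 730 elements, of which 1.23% shifted to antisense and 0.137% to sense. The changes of ETNERV (-0.70), ETnERV2 (1.39), ETnERV3 (0.63) and RLTRETN_MM (3.72) did not pass either, with adjusted p from 0.123 to 0.624 (limma).

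DKO against WT gave 1 call in the family. RLTRETN_MM in antisense was at 28.2 and 30.7 in DKO and at 3.69 and 5.58 in WT, a log2 change of 2.67 ± 0.42 (SE, adjusted p = 0.0387, limma, n = 2 each). The groups did not overlap. Of all features 4.09% rose and 0.0803% fell. After scaling the change was 1.72 and did not pass (adjusted p = 0.107, limma), in a fit where 0.883% of features rose and 0.241% fell. With a library left out the adjusted p ran from 0.0414 to 0.190, passing only without DKO library 2. In sense RLTRETN_MM was at 8.31 and 3.20 in DKO and at 1.86 and 2.33 in WT (1.27, adjusted p = 0.297, limma). MMETN in sense was below both WT values in both DKO libraries, with a log2 change of -0.96 as deposited (adjusted p = 0.257) and of -1.90 after scaling (adjusted p = 0.121). The other 7 features lay between -0.47 and 0.73 as deposited.

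DKO against Tdg KO, the effect of Trp53 loss without Tdg, gave no call, with a background of 3.05% of features that rose and 0.0803% that fell. RLTRETN_MM in antisense came nearest. It was at 28.2 and 30.7 in DKO and at 5.37 and 8.06 in Tdg KO, a log2 change of 2.14 ± 0.42 (SE, adjusted p = 0.0501, limma, n = 2 each), and 1.09 after scaling (adjusted p = 0.225), where 0.722% of features rose and 0.161% fell. In sense the LTR overlapped between these groups, with 8.31 and 3.20 in DKO and 6.05 and 1.86 in Tdg KO. MMETN in sense overlapped too (log2 change -0.37, adjusted p = 0.620, limma). ETnERV2 in sense was higher in both DKO libraries (0.875 and 2.54) than in both Tdg KO libraries (0.326 and 0.353), but did not pass (1.87, adjusted p = 0.137, limma).

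Loss of Tdg alone in B16 gave no call in the family, and no feature of the table passed, with 0% called in either direction (limma), though 15 features rose and 27 fell at an unadjusted p under 0.05. Log2 changes ran from -1.14 to 0.67 in sense and from -0.52 to 0.53 in antisense. MMETN in sense was at 11.3 and 5.74 in Tdg KO and at 14.2 and 10.4 in WT (-0.59, adjusted p = 1.00, limma), and the groups overlapped. RLTRETN_MM had log2 changes of 0.67 in sense and 0.53 in antisense.

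Loss of Trp53 alone gave 0% called as well (limma), with 16 features up and 65 down before adjustment. RLTRETN_MM in sense was at 0 in both Trp53 KO libraries and at 1.86 and 2.33 in WT. Both groups lay under the floor of 3 fragments, a coverage of 2.78, so no fold is given (adjusted p = 0.255, limma). In antisense the same LTR was at 9.56 and 5.56 in Trp53 KO and at 3.69 and 5.58 in WT. MMETN in sense did not separate the groups, at 18.5 and 10.1 in Trp53 KO and 14.2 and 10.4 in WT. Its log2 change was 0.17 (adjusted p = 0.988, limma).

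Whether Tdg loss had another effect without Trp53 than with it was tested as an interaction, the change of DKO over Trp53 KO minus that of Tdg KO over WT. No feature passed after adjustment (0% in either direction, limma), though 427 were above and 10 below 0 at an unadjusted p under 0.05. RLTRETN_MM in sense had an interaction of 5.05 ± 1.08 (SE, adjusted p = 0.0757, limma), which rests on the zeros of Trp53 KO. It passed without DKO library 2 in the fit (5.72, adjusted p = 0.0355, limma) and with no other library left out. The values were 1.47 for RLTRETN_MM in antisense (adjusted p = 0.136), 2.77 for ETnERV2 in sense (adjusted p = 0.120) and -0.54 for MMETN in sense (adjusted p = 0.585). The call of the LTR in cells without Trp53 is thus not shown to differ from its change in cells with Trp53.

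In KP, loss of Tdg gave no call in the family or in the table (0% of 984 features, limma), with 44 features up and 4 down at an unadjusted p under 0.05. RLTRETN_MM in antisense was at 4.81, 2.52 and 2.69 in Tdg KO and at 0 in both WT libraries. Libraries 2 and 3 of Tdg KO lay under the floor of 3 fragments, a coverage of 2.78, so no fold is given. The limma p was 0.000227 before adjustment and 0.223 after, and it depends on the pseudocount. In sense the LTR was at 10.2, 6.73 and 7.24 in Tdg KO and at 3.58 and 2.08 in WT. As deposited, all 3 Tdg KO libraries lay above both WT libraries on both strands. The sense log2 change was 1.5 ± 0.60 (SE), with an adjusted p of 0.777 by limma. After scaling it was 0.82, and the sense values overlapped, at 11.4, 6.33 and 5.40 in Tdg KO and 6.01 and 2.79 in WT. The LTR also overlapped as a share of repeat sense coverage, at 0.0787%, 0.0829% and 0.0731% in Tdg KO and 0.0868% and 0.0502% in WT. The median change of all KP features was 0.75 as deposited and 0.15 after scaling. These levels are 7.27 to 11 sense fragments and 2.72 to 5.20 antisense fragments per Tdg KO library.

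MMETN spread too widely in KP Tdg KO for a difference to be seen. Its sense coverage averaged 270.1 ± 290 in Tdg KO (SD, n = 3) and 211 ± 80.9 in WT (SD, n = 2), with a log2 change of -0.36 ± 1.18 (SE, adjusted p = 0.911, limma). Tdg KO library 1 was the lowest of the 5 KP libraries and library 3 the highest. Without library 1 the change was 0.68, so its sign rests on that library, in which IAPEZI was also lowest (9.80). Without WT library 2 it was 0.038. ETNERV showed the same spread (-0.30, adjusted p = 0.922, limma). After scaling the changes were -1.06 for MMETN and -1.0 for ETNERV. Antisense coverage of MMETN was higher in all 3 Tdg KO libraries than in both WT libraries as deposited, with a log2 change of 1.52 (adjusted p = 0.777, limma). After scaling it overlapped, at 3.04, 0.979 and 3.45 in Tdg KO and 1.36 and 0.968 in WT, with a change of 0.88.

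Ratios within a library, taken after adding 0.1 to both values, need no scaling and give the LTR relative to the internal sequence. In sense the ratio of RLTRETN_MM to MMETN was 1.70 and 0.408 in DKO, 0.541 and 0.336 in Tdg KO, and 0.137 and 0.231 in WT, while Trp53 KO had no LTR coverage. The ratios of DKO and of Tdg KO lay above those of WT (exact permutation p = 0.333 each). Both WT libraries and Tdg KO library 2 held fewer than 3 LTR fragments (2.01, 2.51 and 2.01), so no size is given for these differences. In KP the log2 ratio was -1.87, -4.70 and -6.34 in Tdg KO and -5.39 and -6.94 in WT, and the groups overlapped. The further ratios were chosen after the values had been seen.

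In antisense the ratio of RLTRETN_MM to MMETN was 2.31 and 1.98 in DKO, 0.365 and 0.915 in Tdg KO, 0.654 and 0.756 in Trp53 KO, and 0.324 and 0.336 in WT. Of the 8 B16 libraries only those of DKO had more coverage on the LTR than on the internal sequence. The log2 difference was 1.60 for DKO against Trp53 KO and 2.69 for DKO against WT (exact permutation p = 0.333 each). Trp53 KO and Tdg KO also lay above both WT libraries, with log2 differences of 1.09 and 0.807 (exact permutation p = 0.333 each). In KP the antisense ratio was 1.74, 2.30 and 0.589 in Tdg KO and 0.110 and 0.122 in WT. All 3 Tdg KO libraries lay above both WT libraries, a log2 difference of 3.53 with an exact permutation p of 0.1, the smallest that 3 against 2 libraries can give. The WT ratios have an LTR coverage of 0 and so are set by the pseudocount of 0.1.

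The ratio of ETNERV to MMETN in sense set the DKO libraries apart from the other B16 libraries. It was 0.910 and 0.894 in DKO, 0.564 and 0.416 in Tdg KO, 0.370 and 0.466 in Trp53 KO, and 0.352 and 0.455 in WT. The log2 difference was 1.12 for DKO against Trp53 KO and 1.17 for DKO against WT, with exact permutation p-values of 0.333 each. In KP it was 0.615, 0.466 and 0.489 in Tdg KO and 0.536 and 0.459 in WT, and the groups overlapped (0.066, exact permutation p = 0.8). In antisense the same ratio ran from 0.467 to 0.726 over the 8 B16 libraries.

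**Figure D5:**
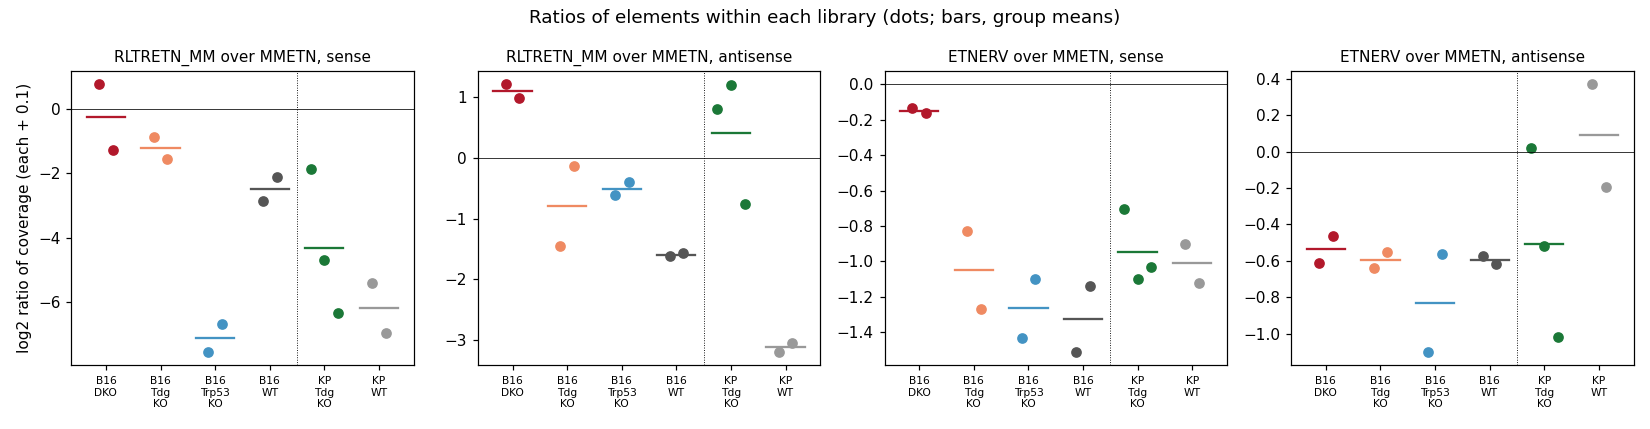
Log2 ratios of coverage (each plus 0.1) between elements of the family within each library, with a dot for each library and a bar for each group mean. As plain ratios, in antisense that of RLTRETN_MM to MMETN is 2.31 and 1.98 in DKO and at most 0.915 in the other B16 libraries, and in sense the ratio of ETNERV to MMETN is 0.910 and 0.894 in DKO and at most 0.564 in the others.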

How the data were processed

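Total RNA lost its ribosomal RNA before directional library preparation, per the labels' protocols. The deposited tables give piPipes mean signal, taken here as coverage per base, with 1 column per strand of each library, per the file headers. The antisense values are negative coverage of the other strand in the deposited tables, and their sign was dropped. HISAT2, DESeq2 and the mm10 build appear in the submitters' processing notes with no version or role. The sources used here give neither total reads nor the placement of reads that match several consensus sequences.

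Of 2035 rows 895 had signal, and 889 stayed after 6 exact duplicates were removed. Steps between values gave the lengths of 563 elements, though a length found in this way could be a divisor of the true one. As 1 fragment 298 covered bases were taken, the most frequent lowest value, seen in 20 of these elements. Fragment counts and the floors built on them are therefore approximate. Each strand was a feature, kept at a mean coverage of at least 0.1 (1246 in B16, 984 in KP). Log2 of coverage plus 0.1 was fitted with limma 3.58.1 in R 4.3.3 (eBayes with trend), all groups of a table together, two-sided, with Benjamini-Hochberg adjustment over all features at 0.05. This left 4 residual degrees of freedom for B16 and 3 for KP. Shares and ratios within a library were compared with two-sided exact permutation tests. The comparisons of B16 share libraries, so their values are not independent.

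The members and lists were chosen with earlier results of these data known. Named are all members on both strands, the 3 best covered sense ERV2 elements of a table, up to 5 called ERV2 elements with the smallest p in the comparison of the series title, and the 5 repeats most like MMETN. Alternatives were other scalings, pseudocounts, no filter, a replicate block, fits of 2 groups only and leaving out each library.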

Additional observations from a re-analysis of the deposited data

Results flagged for a closer look

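Antisense coverage of ETnERV2 and ETnERV3 had changes of opposite sign with Tdg loss in the 2 lines as deposited, and was picked out because the directions of the lines disagreed. For ETnERV2 the log2 change of Tdg KO over WT was -0.35 in B16 and 0.95 in KP, a difference of -1.31. For ETnERV3 it was -0.52 in B16 and 0.96 in KP, a difference of -1.48. The median change of all KP features was 0.75 and that of other ERV2 elements in antisense 1.01. After median-ratio scaling the KP values were 0.42 and 0.35, and after quantile normalization ETnERV2 was at -0.14 in B16 and -0.015 in KP, the same sign. Neither difference was tested, since line and table differ together, and none of the 4 changes passed on its own (limma).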

How the results depend on the processing

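Calls depended on the scaling, on the groups in the fit and on single libraries, and after centring or median-ratio scaling the 2 calls in the family were MMETN sense and RLTRETN_MM sense. In DKO against Trp53 KO (368 rose, 19 fell), 26 features rose and 110 fell after median centring, 38 and 52 after quantile normalization, 77 and 49 after median-ratio scaling, 0 and 0 in a fit of the 2 groups only, and 298 and 24 with a replicate block. Deviations of libraries with the same replicate number from their group means correlated between -0.0205 and 0.177. In a group of 2 libraries these deviations are equal and opposite, so in B16 libraries with different numbers only repeat these values with the sign turned. The largest, 0.177, was that of Tdg KO and DKO in B16, so little sharing by replicate number was seen. Pairing was not tested beyond this. Of the 10 features of the family 2 were called, against 1 after quantile normalization and 0 with 2 groups only. Under centring, quantile normalization and median-ratio scaling, in that order, the log2 changes were -1.66, -0.996 and -1.05 for MMETN antisense, -1.36, -0.879 and -0.751 for ETNERV antisense, -1.82, -1.60 and -1.19 for ETnERV2 antisense, -1.62, -1.13 and -1.0 for ETnERV3 antisense, -0.987, -1.42 and -0.286 for ETnERV3 sense and -0.0544, 0.624 and 0.549 for RLTRETN_MM antisense. ETnERV2 sense was at -0.422 after centring and -1.09 after quantile normalization. MMETN sense passed after centring (-3.18) and median-ratio scaling (-2.57). With 2 groups only, RLTRETN_MM stayed at 5.72 in sense and 2.0 in antisense but lost its calls. Its strand ratio passed with a pseudocount of 0.01 (7.0), and its sense ratio to MMETN was 3.67 with a pseudocount of 1 and 10.2 with 0.01. The share of MMETN among ERV2 elements alone differed by -0.0126 percentage points.

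In DKO against Tdg KO (38 rose, 1 fell), the same 3 scalings gave 2, 13 and 9 rises and 2, 8 and 2 falls, and RLTRETN_MM sense changes of -0.90, -0.819 and -0.431. A pseudocount of 1 gave 156 rises, and RLTRETN_MM antisense was then the 1 call in the family (2.0), as with 0.01 (2.16). In DKO against WT (51 rose, 1 fell), they gave 3, 13 and 11 rises and 4, 14 and 3 falls, and a pseudocount of 1 gave 2 falls. RLTRETN_MM antisense was at 1.30, 1.78 and 1.72, and at 2.67 with the replicate block or 2 groups only, and passed under none of these 5, which left 0 calls in the family. Its sense change was -0.101 after centring and -0.0629 after quantile normalization. The replicate block and the fits of 2 groups gave 0 rises and 0 falls in both comparisons. In Trp53 KO against WT, 3 features fell with a pseudocount of 0.01, 1 of them RLTRETN_MM sense (-7.71), and 6 with 2 groups only. In the interaction 7 features passed with a pseudocount of 0.01, and RLTRETN_MM antisense was at -0.709, -0.0237 and -0.0823 under the 3 scalings.

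With each library left out, also under median-ratio scaling in DKO against Trp53 KO (an alternative added after the data were seen), that comparison gave 2 to 393 rises, 0 to 76 falls and 0 to 4 calls in the family. Without Trp53 KO library 1 there were 2 rises as deposited, without library 2 15, and without DKO library 1 133. The log2 changes ran from -3.04 to -0.695 for MMETN sense, -0.0988 to 0.883 for MMETN antisense, -0.351 to 0.336 for ETNERV sense, -0.0302 to 0.499 for ETnERV2 antisense, -0.042 to 0.911 for ETnERV3 antisense, 4.45 to 6.39 for RLTRETN_MM sense and 1.61 to 2.38 for its antisense. DKO against Tdg KO gave 0 to 291 rises, 0 to 9 falls, MMETN sense from -0.846 to 0.113 and RLTRETN_MM sense from -0.224 to 1.42. DKO against WT gave 0 to 262 rises, 0 to 6 falls, 0 to 1 calls in the family and RLTRETN_MM antisense from 2.38 to 2.96. Tdg KO against WT gave 0 to 4 rises, 0 to 2 falls and RLTRETN_MM sense from -0.152 to 1.5. Trp53 KO against WT gave 0 to 8 rises, 0 to 5 falls and MMETN sense from -0.262 to 0.602. The interaction gave 0 to 296 rises, 0 to 8 falls, 0 to 1 calls in the family and RLTRETN_MM sense from 4.22 to 5.87. The highest counts of rises in DKO against Tdg KO, DKO against WT and the interaction came without DKO library 2 (without DKO library 1 they were 76, 71 and 80). MMETN sense in KP ran from -1.32 to 0.675. A group left with 1 library was assumed to vary like the others. Counting error limits RLTRETN_MM, and ETnERV2 and ETnERV3 in sense in KP, and the cause of these shifts was not tested.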
